A study of Mus musculus with 35 samples.

Results

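The genes described here are those that skin immune cells and keratinocytes both expressed at rest, and the question is where their response to paclitaxel differed between the 2 populations. Members were chosen by their resting level: the mean had to be at least 10 CPM (counts scaled to a common library total of gene counts, without further factors) in the immune libraries of vehicle males and also in the keratinocyte libraries of vehicle males. This held for 6688 of the 22609 gene symbols (29.6%), of which 6687 could be tested, since Gfra3 was too low over the libraries. Their resting levels had medians of 47.2 CPM in immune cells and 71.4 CPM in keratinocytes. The genes just inside the minimum were Chaf1a at 10.0019 CPM and Fbxw9 at 10.0036 CPM, and those just outside were Srf at 9.99968 CPM and Ndufaf2 at 9.99679 CPM, all 4 limited by the immune side. The vehicle male libraries that chose the members are also the controls of the comparison, so resting levels are a description and each difference was also computed with vehicle females, whose libraries the choice did not use.

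Messenger RNA was measured in populations isolated from the hind paw skin of mice, 35 libraries in 9 groups of 3 populations. Of these, 15 libraries of C57 males aged 8 to 16 weeks enter the comparison. Immune cells were isolated as CD45-positive cells from wild-type mice, 4 libraries after vehicle and 4 after paclitaxel (PTX). Keratinocytes were isolated as tdTomato-positive cells from K5-cre-ER/tdTom mice, 3 libraries after vehicle and 4 after PTX, so every keratinocyte group carried the Cre and the reporter and no immune group did. The keratin 5 promoter drives this Cre, which acts in basal keratinocytes and leaves their descendants labelled. PTX was injected into the peritoneum 2 times, 1 day apart, at 2 mg/kg, with tissue collected 6 days after the second dose. The treatment is labelled PTX in the immune libraries and PTX-short in the keratinocyte libraries. Both labels were taken to mean this schedule, which is an assumption of the comparison. The labels do not say that libraries came from separate mice, and each p-value therefore covers the variation among the libraries at hand, part of which may be technical.

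Paclitaxel binds beta-tubulin and stabilises microtubules, which blocks dividing cells in mitosis and disturbs transport in others. It is given against solid tumours and often causes a painful neuropathy of hands and feet. In the skin, keratinocytes divide in the basal layer and keep the barrier, while resident macrophages, dendritic cells, mast cells and T cells take up debris, present antigen and release cytokines. Genes that both populations express include most of the machinery of translation, respiration and protein turnover, early stress-response genes, and genes of neighbouring cells whose RNA a sort can carry along.

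Gene counts lay between 6518070 and 18766402 per library, with the lowest in replicate 2 of the vehicle keratinocytes. That library had no count for 1306 members, against 201 and 407 in the other vehicle keratinocyte libraries. The PTX libraries lacked a count for 293 to 770 members in immune cells and 248 to 676 in keratinocytes, and the vehicle immune libraries for 6 to 70. Within a group, the Spearman correlation of member levels was 0.743 to 0.878 in vehicle immune libraries, 0.526 to 0.652 in PTX immune libraries, 0.301 to 0.398 in vehicle keratinocytes and 0.420 to 0.535 in PTX keratinocytes, as a description over genes that share the library. The keratinocyte level of many members rested on few libraries, since 2506 were at 10 CPM or more in all 3 vehicle keratinocyte libraries and 1502 in a single one.

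Markers of the sorted cells and of their neighbours moved between vehicle and PTX in both sorts. The 12 pan-immune markers summed to between 6732 and 10889 CPM in vehicle and between 9502 and 16117 CPM in PTX immune libraries, and the 11 basal keratinocyte markers to between 21127 and 34954 CPM in vehicle and between 4148 and 12334 CPM in PTX keratinocytes. In the keratinocyte sorts the 14 macrophage markers summed to between 45.2 and 47.8 CPM in vehicle and between 1442 and 3684 CPM in PTX, and the 15 fibroblast markers to between 1030.5 and 1787 CPM in vehicle and between 24254 and 28899 CPM in PTX. In the immune sorts the fibroblast sum was between 11287 and 22383 CPM in vehicle and between 769 and 2885 CPM in PTX, and the basal keratinocyte sum was between 96.0 and 2861 CPM in vehicle and between 27.0 and 93.4 CPM in PTX. The pan-immune sums of vehicle and PTX overlapped, and the other sums given here did not. Their part in the results that follow was not tested. In such bulk samples, fewer cells of a type and less RNA per cell cannot be told apart.

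**Figure D1:**
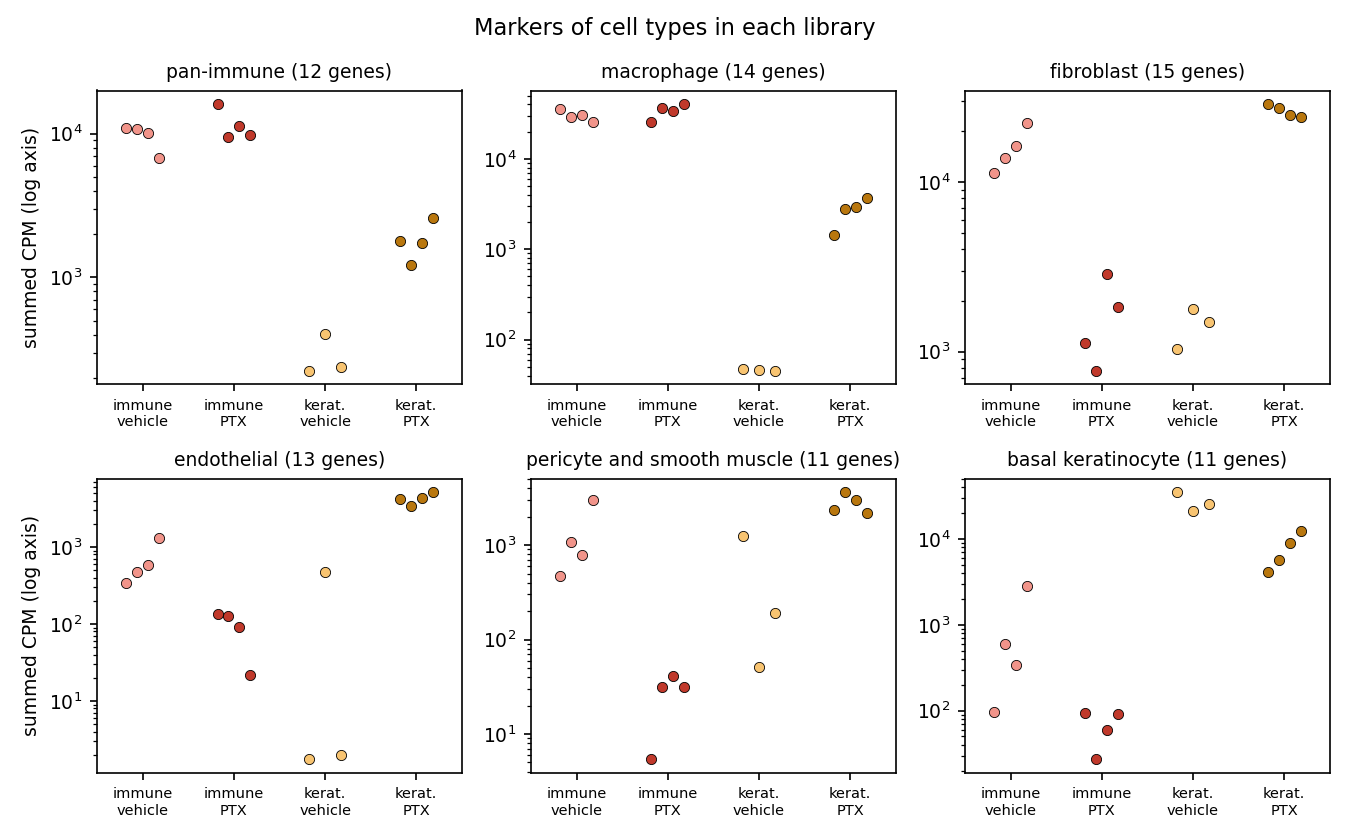
Summed CPM of 6 lists of cell type markers (log axis) in each of the 15 libraries, 1 point per library, by population and treatment. The fibroblast, endothelial and macrophage sums of the PTX keratinocyte libraries lie above those of the vehicle keratinocytes, and the fibroblast sums of the PTX immune libraries lie below those of the vehicle immune libraries.

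The response of the 2 populations differed for 134 members, and most of these were lower in immune cells relative to keratinocytes. The difference is the log2 PTX effect in immune cells minus that in keratinocytes, so a positive value means that PTX libraries were higher relative to vehicle in immune cells than in keratinocytes. The edgeR quasi-likelihood test called 19 members higher and 115 lower at an adjusted p under 0.05, against 0.182% and 7.29% of all 13160 genes tested. These are 0.284% and 1.72% of the members, so the share called higher was near that of all genes and the share called lower was below it. An unadjusted p under 0.05 was found for 541 members and for 3019 of all genes (22.9%) for the difference, and for 426 members in keratinocytes, beside 21.8% of all genes, and 461 in immune cells, beside 16.2%. Among the 19, PTX raised the fitted level in immune cells and lowered it in keratinocytes for 18, the exception being Yipf6 with both lower. Among the 115, 67 were lower in immune cells and higher in keratinocytes, 33 were lower in both and 15 were higher in both.

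Taken alone, the PTX effect in immune cells passed the test upwards for 4 members and downwards for 83, beside 0.0304% and 1.14% of all genes. In keratinocytes it passed upwards for 53 and downwards for 20, beside 4.95% and 0.175%. Of the 19 members called higher, 12 had also fallen in keratinocytes by their own test and none had risen in immune cells. Of the 115 called lower, 67 had fallen in immune cells and 26 had risen in keratinocytes, 6 of them both. The median difference over members was 0.43, from a median PTX effect of 0.27 in immune cells and -0.36 in keratinocytes, and the median over all genes tested was -0.64. The members' median was 0.60 with RLE scaling, -0.59 with voom weights and -0.15 with a replicate block, so values of gene lists are read against it.

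**Figure D2:**
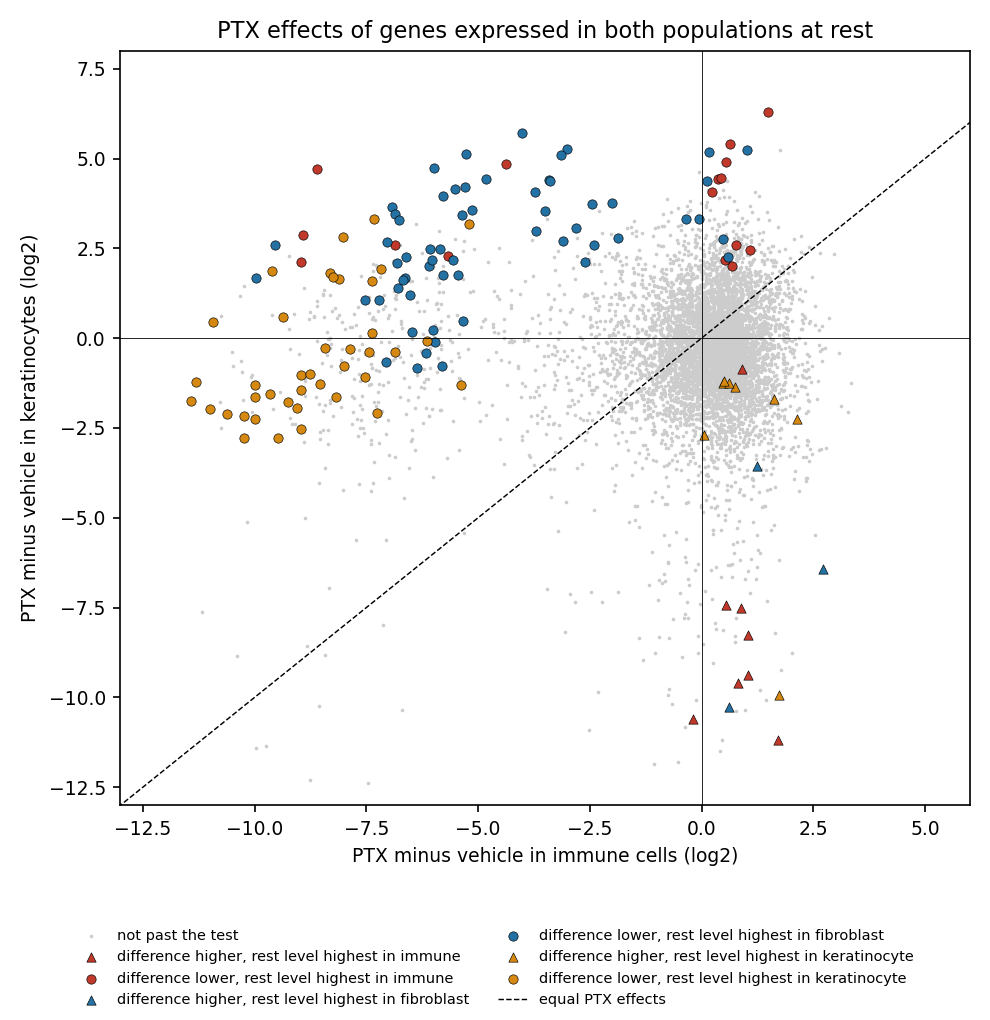
Log2 PTX effect in immune cells (x axis) and in keratinocytes (y axis) for the members tested, 1 point per gene. Triangles mark the 19 members whose difference was called higher and circles the 115 called lower, coloured by the vehicle female population with the highest level of the gene. Most triangles lie below the horizontal zero line and most circles left of the vertical one.

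Members were also divided by the vehicle female population, immune cells, fibroblasts or keratinocytes, in which their level was highest. Of 1285 members highest in fibroblasts, 59 were called lower (4.59%), which is 51.3% of all lower calls, and 3 higher. Of 3715 members highest in keratinocytes, 40 were called lower and 8 higher, and of 1687 highest in immune cells, 16 and 8. Over all genes tested, members or not, 15.9% of those highest in fibroblasts were called lower, 1.93% of those highest in keratinocytes and 8.62% of those highest in immune cells, beside 4.59%, 1.08% and 0.948% of the members. The median differences were -0.20, 0.63 and 0.43 in that order. With vehicle females as controls these medians were -0.82, 0.80 and -0.63, so the sign for members highest in immune cells depended on the control libraries used. Whether sex or other differences between the vehicle male and female libraries made such changes was not tested.

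Several abundant genes were among those called higher. From here on, CPM of single genes in the 15 libraries are also scaled by the TMM factors of the fit. Apoe, Anxa2, Lgals3 and Ccnd2 are described although they were not among the 12 largest differences, and were chosen after their values were seen. Apoe encodes apolipoprotein E, a lipid carrier made by macrophages and by keratinocytes. Its level was 7946, 7015, 6512 and 8159 CPM in the vehicle immune libraries and 7188, 13171, 14922 and 14581 CPM in the PTX immune libraries. In keratinocytes it was 10014, 17744 and 13391 CPM after vehicle and 6731, 3708, 5929 and 4943 CPM after PTX. The PTX keratinocyte libraries all lay below their vehicle libraries, and 3 of 4 PTX immune libraries lay above all of theirs. The fitted effects were 0.75 ± 0.23 (SE) in immune cells (edgeR adjusted p = 0.13) and -1.36 ± 0.25 in keratinocytes (edgeR adjusted p = 0.00153), and their difference was 2.12 ± 0.34 (edgeR adjusted p = 0.000441). The Apoe call held without any 1 of the 15 libraries and with vehicle females as controls (1.18, edgeR adjusted p = 0.0393).

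Anxa2, which encodes a calcium-dependent membrane-binding annexin, was at 2064, 1642, 1419.8 and 1317 CPM in vehicle and 2956, 1840.3, 2437 and 1753 CPM in PTX immune libraries. It was at 2342, 2778 and 2877 CPM in vehicle and 1217, 1159, 1181 and 965 CPM in PTX keratinocytes. The keratinocyte groups did not overlap and the immune groups did. The difference was 1.72 ± 0.39 (edgeR adjusted p = 0.00994), with a fall of 2.36-fold in keratinocyte means. Lgals3, which encodes the secreted lectin galectin-3, was at 2469, 1431, 1577 and 1576 CPM in vehicle and 4555, 1974, 2580.0 and 4005 CPM in PTX immune libraries. Keratinocyte levels were 1418, 2082 and 1358 and 941, 1037, 879 and 693 CPM, again without overlap. Its difference was 1.76 ± 0.45 (edgeR adjusted p = 0.021). The Lgals3 call held in 3 of 7 alternative fits (other scaling, filter, test, block or use of vehicle females). Ccnd2 encodes the G1 cyclin D2. It was at 1360.3, 1278 and 1753 CPM in vehicle and 234, 204, 227 and 232 CPM in PTX keratinocytes, 6.52-fold lower by the means (-2.71 ± 0.52, edgeR adjusted p = 0.00248). In immune cells its means were 138 and 144 CPM, and the difference was 2.76 ± 0.69 (edgeR adjusted p = 0.0196). Without replicate 1 of the PTX immune libraries the adjusted p rose to 0.0514 for Anxa2, 0.0823 for Lgals3 and 0.0599 for Ccnd2, and Ccnd2 had 0.0753 without replicate 3 of the vehicle keratinocytes.

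**Figure D3:**
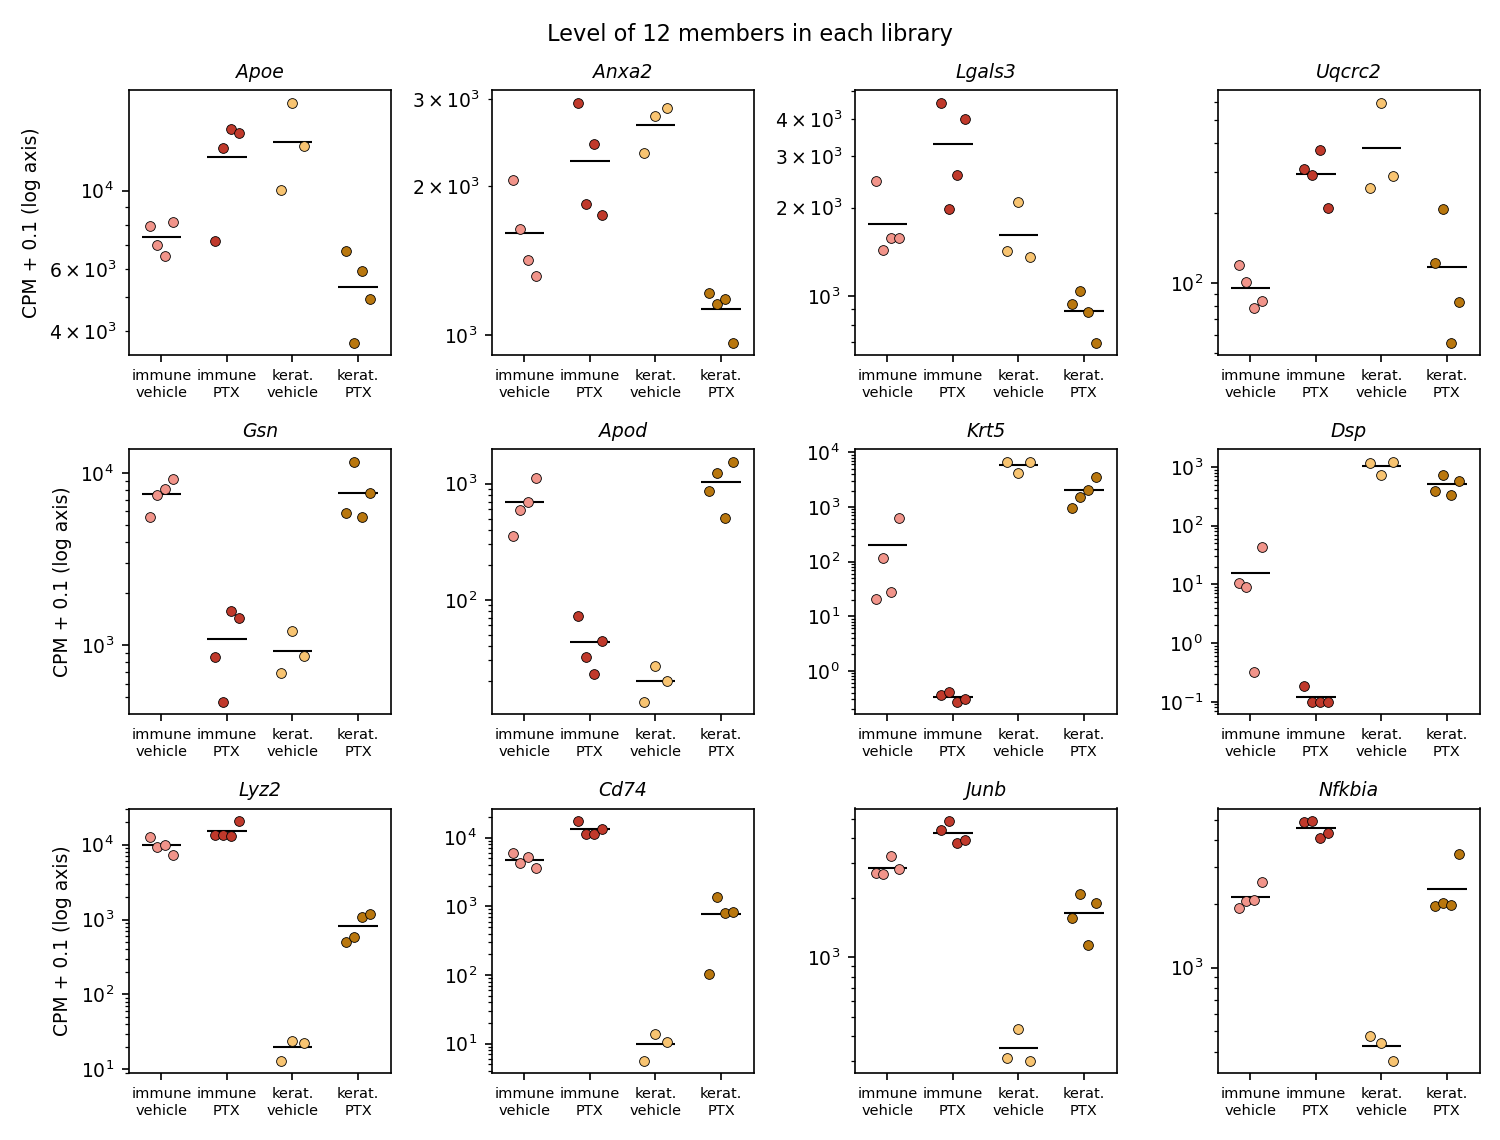
CPM + 0.1 (log axis) of 12 members in each library, 1 point per library with a line at the group mean. The top row holds members called higher, with PTX keratinocytes below vehicle keratinocytes, and the other rows hold members called lower.

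The largest positive differences belonged to genes with almost no counts in PTX keratinocytes. Slc29a3, a nucleoside transporter of lysosomes, was at 0.507, 198 and 66.3 CPM in vehicle and 0.0786, 0.317, 0 and 0.120 CPM in PTX keratinocytes, and at 96.8, 32.1, 57.0 and 40.5 and 109, 117, 239 and 0.796 CPM in the immune groups. The difference of Slc29a3 was 10.41 ± 2.49 (edgeR adjusted p = 0.0146). It kept its call without any 1 library, and with vehicle females as controls (edgeR adjusted p = 0.0221).

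The vehicle keratinocyte level of Slc29a3 came almost wholly from replicates 2 and 3, and that of other genes of this kind from 1 or 2 libraries. Lpxn, an adhesion adaptor of leukocytes, was at 0.0724, 0 and 68.7 CPM in vehicle keratinocytes and had 1 count in the 4 PTX libraries together, a ratio of means of 1379 with a 95% counting interval of 213 to 46988. Its immune levels were 137, 141, 163 and 173 CPM after vehicle and 253, 263, 151 and 412 CPM after PTX. Lpxn had a difference of 10.40 (edgeR adjusted p = 0.0105), and 1.70 (edgeR adjusted p = 0.676) without replicate 3 of the vehicle keratinocytes. Il1rn, which encodes the interleukin 1 receptor antagonist, was at 0.217, 0.162 and 165 CPM in vehicle and 0.0786, 0.529, 0.200 and 0.480 CPM in PTX keratinocytes. Its difference of 7.97 (edgeR adjusted p = 0.0209) became -0.11 without the same library, -0.28 with vehicle females as controls, and 6.98 (edgeR adjusted p = 0.0507) without replicate 1 of the PTX immune libraries. Il1rap, the accessory chain of the interleukin 1 receptor, was at 109.5, 0.162 and 1.48 and 0.0786, 0.211, 0.133 and 0.360 CPM in these groups. It had a difference of 8.42 (edgeR adjusted p = 0.0378), which was 2.96 (edgeR adjusted p = 0.366) without replicate 1 of the vehicle keratinocytes and -0.99 with vehicle females.

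Gas2l3, a linker of actin and microtubules, was at 99.2, 368 and 0.410 CPM in vehicle and 0.0786, 0.529, 0.333 and 1.08 CPM in PTX keratinocytes, a fall of 309-fold in the means. The difference was 9.30 (edgeR adjusted p = 0.0126, and 0.0555 without replicate 2 of the vehicle keratinocytes). Zfp53, a zinc finger gene, was at 0, 194 and 0 CPM in vehicle keratinocytes, so that 1 library held all of its counts. It had 2 counts in the PTX libraries and a difference of 10.87 (edgeR adjusted p = 0.0497), which was -1.90 without replicate 2 of the vehicle keratinocytes. Yipf6, a Golgi membrane protein, had 1 count in the PTX keratinocytes and Cul2, the scaffold of a ubiquitin ligase, had 19. Their differences were 10.41 and 9.16 (edgeR adjusted p = 0.0468 and 0.0488). BC002230 was named after its values were seen. Its difference was 11.67 (edgeR adjusted p = 0.0488), with 1 PTX immune library at 133 CPM and the other 3 at or below 0.170 CPM. Leaving out 1 library ended the call in 12 to 14 of the 15 fits for Yipf6, Cul2, Gnptg and Wdr43, 11 for Il1rap, BC002230 and Rpl8, and 13 for Zfp53, its reversal included.

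A clean separation of all libraries in opposite directions was rare. In 19 members (0.284%) every PTX immune library lay above every vehicle immune library while every PTX keratinocyte library lay below every vehicle one, beside 0.16% of all genes. The reverse held for 46 members (0.688%), beside 1.52% of all genes. In 36 members (0.538%) PTX libraries were apart and higher in both populations, beside 0.684%, and in 33 (0.493%) lower in both, beside 0.342%. Uqcrc2 encodes a core subunit of respiratory complex III. It was at 119.5, 101, 78.5 and 83.7 CPM after vehicle and 307, 290.4, 372 and 211 CPM after PTX in immune cells. In keratinocytes it was at 255, 595 and 287 and 122, 208, 55.4 and 83.0 CPM. The means were 3.09-fold higher in immune cells and 3.24-fold lower in keratinocytes, and the difference was 3.32 ± 0.90 (edgeR adjusted p = 0.0299, and 0.0507 to 0.0683 in the 6 of 15 leave-one-out fits that ended the call). Those 6 left out replicates 2, 3 or 4 of the vehicle immune, replicates 1 or 3 of the PTX immune or replicate 2 of the vehicle keratinocyte libraries.

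Gnptg, a subunit of the enzyme that tags lysosomal proteins, was at 82.1, 73.3, 77.2 and 64.1 and 150.2, 166, 150.5 and 236 CPM in immune cells and at 78.5, 171 and 158 and 31.7, 7.72, 1.66 and 5.28 CPM in keratinocytes. Its difference was 4.79 ± 1.41 (edgeR adjusted p = 0.0442). Wdr43, a factor of ribosome assembly, had a difference of 4.38 ± 1.27 (edgeR adjusted p = 0.0408), with overlapping immune groups. The same separation held, without a call, for Mid1, a ubiquitin ligase of microtubules, at 116, 132, 56.0 and 221 CPM in PTX immune cells and 0, 2.33, 7.32 and 13.3 CPM in PTX keratinocytes (5.19 ± 2.06, edgeR adjusted p = 0.123). Cetn2, a centrosome protein, had a difference of 3.67 ± 1.93 (edgeR adjusted p = 0.27), and Ywhag, an adaptor of phosphorylated proteins, one of 2.49 ± 1.09 (edgeR adjusted p = 0.169). Hiat1, a membrane transporter, had 3.86 ± 1.44 (edgeR adjusted p = 0.0996).

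Subunit genes of the ribosome, the respiratory chain and the proteasome had differences above 0 in nearly all members, and 3 of them passed the test. All 45 members among the cytosolic ribosomal protein genes had a positive difference, with a median of 1.12 (immune median 0.40, keratinocyte median -0.77), and 1 of them, Rpl8, passed the test. For oxidative phosphorylation 64 of 68 members were above 0 (median 1.10) and 2 passed, Atp5b and Uqcrc2. For the proteasome 29 of 31 were above 0 (median 0.93), for the CCT chaperonin, which folds tubulin and actin, 8 of 8 (median 1.21), and for translation factors 29 of 33 (median 0.88). None of these 72 genes passed. Of all members 60.2% were above 0. The 5 list medians were positive under each scaling and test tried and with vehicle females as controls, between 0.31 for CCT with vehicle females and 1.47 for ribosomal proteins with the same controls. The median of all members was 0.21 with these controls. Of the 8 CCT members, 5 then lay above that median and 2 lay below 0, so CCT was near the members as a whole.

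Rpl8, a protein of the large ribosomal subunit, was at 603, 556, 568 and 522 CPM in vehicle and 1053, 389, 609.7 and 1138 CPM in PTX immune libraries, which overlap. It was at 2523, 3344 and 2448 CPM in vehicle and 1272, 1323, 1342 and 907 CPM in PTX keratinocytes, which do not. The difference of Rpl8 was 1.70 ± 0.49 (edgeR adjusted p = 0.0407). Ribosomal protein genes have near-identical pseudogenes, so their counts are uncertain. Atp5b encodes the catalytic beta subunit of ATP synthase. It was at 927, 1109, 1057 and 1168 and 1594, 824, 1504 and 2556 CPM in immune cells and at 2593, 4195 and 3155 and 2042, 1025, 1295 and 1245 CPM in keratinocytes, where vehicle and PTX did not overlap. Its difference was 1.85 ± 0.48 (edgeR adjusted p = 0.0239, and 0.0595 without replicate 1 of the PTX immune or 0.0541 without replicate 2 of the vehicle keratinocyte libraries).

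Tubulin and microtubule genes, which encode and regulate the target of the drug, had 20 of 27 members above 0 and none that passed (median 0.99, between 0.45 and 1.27 over the other scalings, tests and controls). Tuba4a, an alpha-tubulin gene, was at 66.5, 141, 107 and 125 CPM in vehicle and 331, 186, 181 and 120.4 CPM in PTX immune libraries. Its keratinocyte levels were 147, 361 and 284 and 164, 30.7, 0.133 and 51.2 CPM. The immune groups overlapped and the difference of 3.0 ± 1.52 did not pass (edgeR adjusted p = 0.25). Of the 6 mitosis and spindle members none passed, and their median of 0.44 was -0.96 with voom and -0.77 with vehicle females. Mki67, a marker of dividing cells, was at 144 ± 98.7 CPM (SD, n = 3) in vehicle and 349 ± 164 CPM (SD, n = 4) in PTX keratinocytes, and its difference was -0.99 ± 1.08 (edgeR adjusted p = 0.723).

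**Figure D4:**
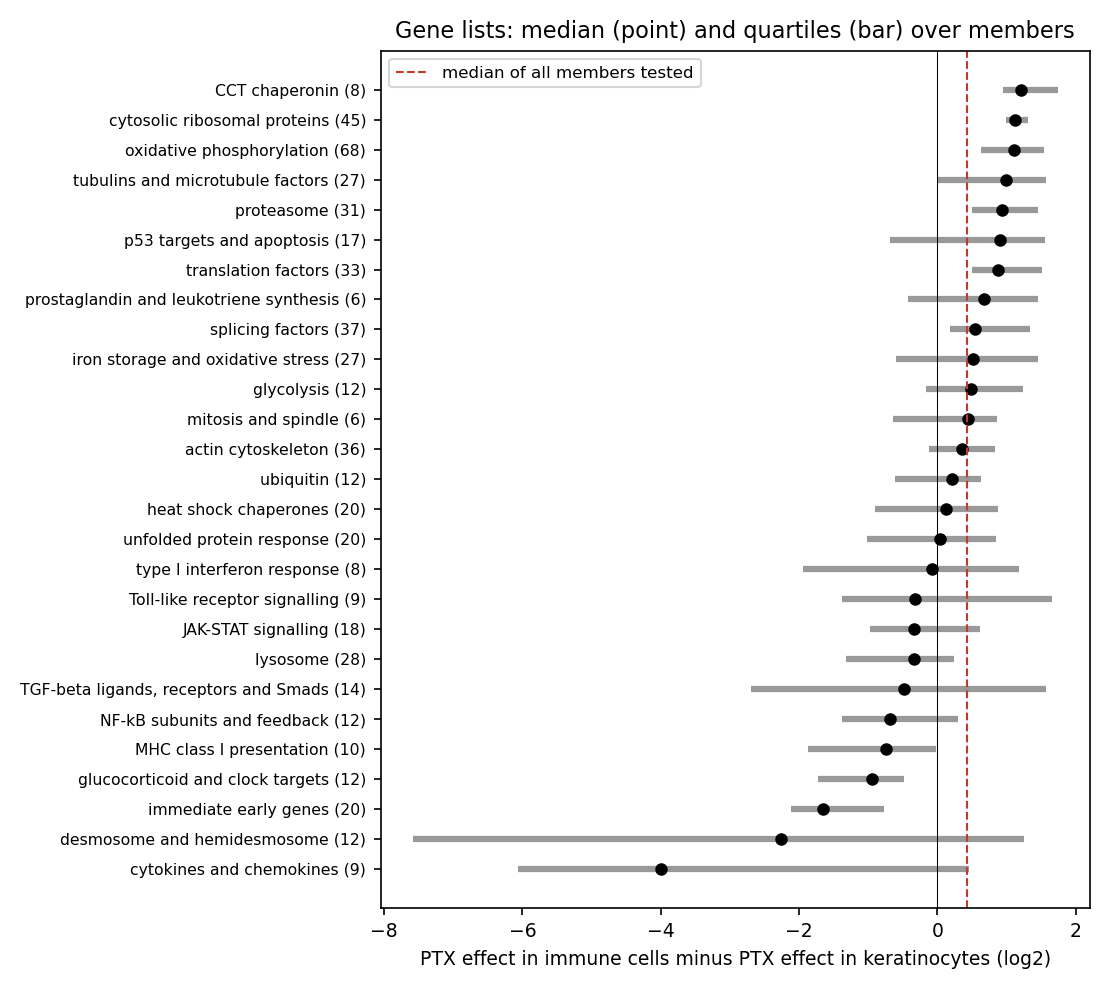
Median (point) and quartiles (bar) of the difference in PTX effect over the members of each gene list, with the number of members in brackets, and the median of all members as a dashed line. Lists of the ribosome, respiration, the proteasome and CCT lie to the right of that line, and immediate early, desmosome and cytokine genes lie to the left of 0.

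Of the 59 members highest in fibroblasts and called lower, 49 had a fitted level that was lower after PTX in immune cells and higher in keratinocytes, 5 were lower in both and 5 higher in both. Gsn encodes gelsolin, which severs actin filaments and is abundant in dermal fibroblasts. It was at 5573, 7452, 8089 and 9249 CPM in vehicle and 851, 470.2, 1580.1 and 1446 CPM in PTX immune libraries. In keratinocytes it was at 687, 1215 and 871 CPM after vehicle and 5888, 11670.5, 5588 and 7618 CPM after PTX. Neither pair of groups overlapped, and the 2 populations moved in opposite directions, 6.98-fold lower and 8.32-fold higher by the means. The effects were -2.80 ± 0.35 (edgeR adjusted p = 0.000129) and 3.06 ± 0.39 (edgeR adjusted p = 2.68e-05), and the difference -5.86 ± 0.53 (edgeR adjusted p = 5.53e-07) had the lowest p of all members. With vehicle females the difference was -3.78 (edgeR adjusted p = 0.000102), but the immune effect turned to 0.71. By the means, Gsn was at 645 CPM in vehicle female and 7591 CPM in vehicle male immune libraries. Only the male mean carries the TMM factors of the 15 libraries.

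Apod encodes apolipoprotein D, a lipid-binding protein of dermal fibroblasts, and was named after its values were seen. It was at 357, 589, 700.1 and 1129 CPM in vehicle and 72.8, 31.9, 22.8 and 44.4 CPM in PTX immune libraries, and at 13.1, 26.9 and 19.8 and 864, 1242, 504 and 1554 CPM in keratinocytes. All groups were apart, and the difference was -9.72 ± 0.91 (edgeR adjusted p = 7.26e-07). Dcn, the proteoglycan decorin of collagen fibrils, was at 1796, 2130.0, 2469 and 4115 and 88.8, 162, 489 and 51.2 CPM in immune libraries and at 87.5, 509 and 467 and 6589.7, 5706, 4904 and 6380.0 CPM in keratinocyte libraries. Its difference was -7.79 ± 0.93 (edgeR adjusted p = 1.23e-05), and -3.27 with vehicle females (edgeR adjusted p = 0.0464). Igfbp6, an IGF-binding protein, and Mmp2, the matrix gelatinase A, had differences of -10.58 ± 1.58 and -10.38 ± 1.69 (edgeR adjusted p = 0.000188 and 0.000492). Both fell in immune cells and rose in keratinocytes by their own tests, like Gsn, Apod, Dcn and the follistatin-like gene Fstl1. Those 6 are all the members that passed in opposite directions in the 2 populations. With vehicle females as controls the immune effects of Gsn and Dcn turned positive (0.71 and 0.65) and those of Apod, Igfbp6 and Mmp2 were -0.44, -2.07 and -1.64. The size of the immune fall, and for Gsn and Dcn its direction, thus depended on the control libraries used.

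Mmp2 was at 64.5, 0.974 and 0.656 CPM in vehicle keratinocytes and 1147, 789, 563 and 563 CPM in the PTX ones, and its immune means fell from 389 to 10.1 CPM. Itih5, which stabilises the hyaluronan matrix, was at 49.5, 92.1, 70.6 and 70.7 and 2.03, 0.770, 0.945 and 0.697 CPM in immune cells, a 63.6-fold fall of the means, and had a difference of -10.72 ± 2.14 (edgeR adjusted p = 0.00367). Fbln1, an elastic fibre protein, had a difference of -8.30 ± 1.81 (edgeR adjusted p = 0.00768) but -0.35 with vehicle females (edgeR adjusted p = 1), where its immune effect turned from -6.63 to 0.96. The chemokine gene Cxcl12, made by stromal cells, was at 139, 238, 197 and 707 CPM in vehicle and 8.14, 33.2, 75.7 and 4.08 CPM in PTX immune libraries, and at 24.3, 20.4 and 126 and 1013, 1070.0, 1038 and 1695 CPM in keratinocytes. Its difference was -7.81 ± 1.31 (edgeR adjusted p = 0.000706). The sum of the 15 fibroblast markers also fell in immune sorts and rose in keratinocyte sorts. It holds Gsn and Dcn, with means of 7591 and 2628 CPM beside a mean sum of 15922 CPM in vehicle immune libraries. The sum is therefore no separate observation for these genes. The mean log2 level (CPM + 1) of the 15, where each weighs alike, was 7.56 to 8.53 in vehicle and 3.18 to 4.84 in PTX immune libraries. In keratinocytes it was 1.88 to 2.16 and 7.73 to 9.06. Of the 15, 3 were members, Gsn, Dcn and Fbln1, and the other 12 were below the minimum in 1 of the populations at rest.

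Genes of vessels and their walls also had negative differences. Pecam1, the endothelial adhesion molecule, was at 33.8, 36.1, 77.5 and 216 CPM in vehicle and 0.254, 0, 0.344 and 0.0996 CPM in PTX immune libraries, 521-fold lower by the means. Pecam1 in keratinocytes was at 0.145, 342 and 0.328 CPM after vehicle, in effect in 1 library, and 812, 541, 391 and 246 CPM after PTX. The difference of Pecam1 was -11.08 ± 2.54 (edgeR adjusted p = 0.0113), and it kept its call without any 1 library. Apold1, an endothelial early response gene, fell from 16.7, 24.1, 54.1 and 51.9 CPM to 3 counts in the 4 PTX immune libraries together, a ratio of means of 541 with a 95% counting interval of 195 to 2766. It had a difference of -11.79 (edgeR adjusted p = 0.0141). Acta2, smooth muscle actin, had a difference of -7.95 ± 2.04 (edgeR adjusted p = 0.0227, and 0.0698 without replicate 3 of the vehicle keratinocytes), from immune means of 459 and 8.98 CPM. Igfbp7, a protein of vessel walls named after its values were seen, fell from an immune mean of 378 to 3.25 CPM and had a difference of -10.31 ± 1.71 (edgeR adjusted p = 0.000615). The 13 endothelial markers summed to between 343 and 1306 CPM in vehicle and 21.5 and 137 CPM in PTX immune libraries. They summed to between 1.74 and 471.3 CPM in vehicle and 3454 and 5128 CPM in PTX keratinocytes, without overlap in either sort, and Kdr, Emcn, Nos3 and Selp had no count in the PTX immune libraries.

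The other large negative differences came from genes with few or no counts in PTX immune libraries. Pcp4l1 was at 40.7, 40.7, 29.5 and 172 CPM in vehicle and 0.424, 0, 0.172 and 0.0996 CPM in PTX immune libraries and at 419, 39.5, 201 and 629 CPM in PTX keratinocytes, for a difference of -13.30 (edgeR adjusted p = 0.00409), the most negative of the members. Sdpr, a protein of caveolae, had a difference of -10.66 (edgeR adjusted p = 0.0125), and Lama5, a laminin chain of basement membranes, one of -11.47 (edgeR adjusted p = 0.00644). Lama5 had 1 count in the 4 PTX immune libraries and 240.2, 300.3, 244 and 627 CPM in PTX keratinocytes. Fscn1, an actin-bundling protein, and Mast4, a kinase, had no count in PTX immune libraries, at least 36.6-fold and 71.0-fold below vehicle against a floor of 3 counts per library. Their fitted differences were -11.64 and -11.39 (edgeR adjusted p = 0.0407 and 0.0237). With that floor they were -6.87 and -6.61, values that were not tested. Ccdc3, a secreted protein, and Dock6, an activator of small GTPases, had -10.83 and -12.13 (edgeR adjusted p = 0.0177 and 0.0125). Without replicate 3 of the vehicle keratinocytes both had an adjusted p of 0.0507 and Mast4 0.0708, Mast4 had 0.0664 without replicate 1, and Fscn1 lost its call in 9 of 15 such fits.

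Of the 40 members highest in keratinocytes and called lower, 28 were lower after PTX in both sorts and 12 were lower in immune cells and higher in keratinocytes. All 3715 members of that class had a median immune effect of 0.23 and keratinocyte effect of -0.57, so the called genes do not stand for the class. Krt5, the basal keratin whose promoter defines the keratinocyte sort, was at 20.7, 119, 27.1 and 624 CPM in vehicle and 0.254, 0.308, 0.172 and 0.199 CPM in PTX immune libraries. In keratinocytes it was at 6690.0, 4267 and 6788 CPM after vehicle and 966, 1541, 2047 and 3537 CPM after PTX. No groups overlapped, with immune replicate 4 highest among the vehicle immune libraries, and the means were 847-fold and 2.92-fold lower. The effects were -9.66 ± 1.02 (edgeR adjusted p = 2.23e-05) and -1.55 ± 0.74 (edgeR adjusted p = 0.23), and the difference was -8.11 ± 1.22 (edgeR adjusted p = 0.000216). With vehicle females it was -4.53 (edgeR adjusted p = 0.0515). All 11 basal keratinocyte markers were members, 4 were called lower (Krt5, Krt15, Trp63 and Col17a1) and 2 had a positive difference. Their median of -5.3956 was -1.005 with vehicle females, where 5 of the 11 were above 0. Krt15, Trp63 and Col17a1 did not pass with these controls (edgeR adjusted p = 0.925, 0.276 and 0.183). Of 7 suprabasal members 3 were called lower (Krt1, Krt2 and Krtdap) and 3 were above 0, with a median of -0.37 and of -0.05 with vehicle females.

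Krt1, a keratin of suprabasal layers, had no count in the 4 PTX immune libraries against 4.90, 2.89, 7.92 and 44.4 CPM after vehicle, at least 57.7-fold lower, and was at 794, 1110.2 and 1196 CPM in vehicle and 80.9, 312, 202 and 357 CPM in PTX keratinocytes. The difference of Krt1 was -8.51 (edgeR adjusted p = 0.00277), or -3.73 with the floor. Krtdap, a secreted factor of differentiating keratinocytes, also fell in keratinocytes by its own test (-2.78 ± 0.78, edgeR adjusted p = 0.0402), from 1423, 1705 and 1546 to 71.5, 215, 208 and 413 CPM. Its difference was -7.46 ± 1.31 (edgeR adjusted p = 0.00109). Of 12 desmosome and hemidesmosome members, which anchor keratinocytes to each other and to the basement membrane, 4 were called lower and 5 were above 0. These 4 were Dsp at -7.93 ± 1.58, Pkp1 at -7.46 ± 1.37, Dsc3 at -3.28 with the floor, having no count in PTX immune libraries, and Col17a1 at -9.03 ± 2.04. Col17a1 had an adjusted p of 0.0819 and 0.0504 without replicates 2 and 3 of the vehicle keratinocytes. Igfbp2, an IGF-binding protein named after its values were seen, was at 34.5, 37.1, 29.8 and 64.9 CPM in vehicle and between 0.0770 and 0.0996 CPM in PTX immune libraries, and had a difference of -7.75 ± 0.96 (edgeR adjusted p = 2.12e-05). Cxcl14, a chemokine of keratinocytes and fibroblasts, was at 290.3 and 276 CPM in keratinocytes but fell from 48.0, 48.0, 38.1 and 53 to 0.932, 0.308, 0.688 and 0.697 CPM in immune cells (difference -6.06 ± 1.16, edgeR adjusted p = 0.00263). With vehicle females the difference of Cxcl14 was -1.29 and did not pass (edgeR adjusted p = 0.665).

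Lyz2 and Cd74 had negative differences, and neither passed in immune cells alone (edgeR adjusted p = 0.239 and 0.123). The 3 pan-immune members had no call and 1 of them was above 0, so this is a description of single genes. Lyz2, the lysozyme of macrophages and neutrophils, was at 12567, 9255, 9898 and 7378 CPM in vehicle and 13264, 13531, 13178 and 21016 CPM in PTX immune libraries. In the keratinocyte sorts it was at 12.9, 24 and 22.4 CPM after vehicle and 494, 584, 1072 and 1169 CPM after PTX. On this TMM scale both pairs of groups were apart, 1.56-fold higher in immune cells and 42.0-fold higher in keratinocytes. Without the factors the immune groups overlap. PTX immune replicate 1 had 156464 Lyz2 counts of 15214838, a lower share than the 235854 of 18766402 in vehicle immune replicate 1. The keratinocyte effect was 5.39 ± 0.38 (edgeR adjusted p = 2.38e-08) and the difference -4.75 ± 0.44 (edgeR adjusted p = 6.62e-07, 4.24e-06 with vehicle females). Cd74, the invariant chain of MHC class II, was at 5999, 4303, 5295 and 3578 CPM in vehicle and 17803, 11247, 11438 and 13236 CPM in PTX immune libraries. It was at 5.50, 13.5 and 10.4 and 104, 1359, 799 and 827 CPM in keratinocytes, and its difference was -4.82 ± 0.70 (edgeR adjusted p = 0.000159). The macrophage sum of the PTX keratinocyte sorts, given for the libraries above, was higher as well. Lyz2 is 1 of its 14 markers, with a mean of 830 CPM beside a mean sum of 2711 CPM after PTX. For Lyz2 the sum is therefore no separate observation.

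B2m, the light chain of MHC class I, which all nucleated cells express, was at 309, 364 and 214 CPM in vehicle and 1509, 1779, 1349 and 2527 CPM in PTX keratinocytes. It was at 2898, 2888, 2602 and 2209.8 and 4477, 4282, 3976 and 5431 CPM in immune libraries, so it was higher after PTX in both sorts without overlap. The difference was -1.82 ± 0.39 (edgeR adjusted p = 0.00611), and with vehicle females -1.35 (edgeR adjusted p = 0.0559). The B2m call held in 3 of the 7 alternative fits. Of 10 MHC class I members 3 had a positive difference and 1, B2m, was called (median -0.74), and of 4 class II members none was positive and 1, Cd74, was called. H2-K1 was at 174, 3.25 and 270.4 CPM in vehicle and 782, 759.7, 831 and 1659 CPM in PTX keratinocytes, and H2-D1 at 321, 632 and 93.6 and 1013, 1088, 1005 and 1266 CPM. Both are near-identical class I genes whose reads the counting may have split, and neither passed (edgeR adjusted p = 0.259 and 0.294), although H2-D1 did with vehicle females (-2.17, edgeR adjusted p = 0.00746). The adhesion gene Icam1, named after its values were seen, had a difference of -4.06 ± 1.13 (edgeR adjusted p = 0.0348), which was no longer called in 6 of the 15 leave-one-out fits, with an adjusted p of up to 0.0909 without replicate 1 of the vehicle keratinocytes.

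Immediate early genes, which cells switch on within minutes of a stimulus or stress, were the pathway list with the most keratinocyte calls. Of 20 members, 18 had a negative difference (median -1.65), 3 were called lower and none higher. The immune median was 0.57 and the keratinocyte median 2.23, with 1 member called higher in immune cells and 10 in keratinocytes. The list median stayed between -1.70 and -1.46 under the scalings, tests and controls tried. Junb, an AP-1 subunit, was at 2667, 2625, 3236 and 2796 CPM in vehicle and 4384, 4896, 3782 and 3888 CPM in PTX immune libraries. Junb in keratinocytes was at 312, 434 and 301 and 1572, 2075, 1159 and 1886 CPM. On the TMM scale both populations were higher after PTX without overlap, 1.5-fold and 4.79-fold by the means. Without the TMM factors the immune groups of Junb overlap. The difference was -1.68 ± 0.37 (edgeR adjusted p = 0.00772, 0.0121 with vehicle females). The Junb call held in 3 of the 7 alternative fits.

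Fos, the partner of Jun proteins in AP-1, was at 469.9, 841 and 98.5 CPM in vehicle and 3416, 2771, 2147 and 4322 CPM in PTX keratinocytes, and at 3570.1, 2905, 4405 and 4494 and 4384, 7266, 4609 and 5351 CPM in immune cells, where the groups overlap. Its difference was -2.26 ± 0.60 (edgeR adjusted p = 0.0285). Without replicate 4 of the vehicle immune, replicate 4 of the PTX immune or replicate 1 of the vehicle keratinocyte libraries, the adjusted p of Fos was 0.0513, 0.0503 and 0.0657. The Fos call held in 3 of the 7 alternative fits. Atf3, a stress-induced factor of the ATF family, was at 73.6, 9.57 and 1.15 CPM in vehicle and 881, 1146, 824 and 1388 CPM in PTX keratinocytes, and at 899, 1022, 1035 and 1316 and 664, 1943, 1923 and 4103 CPM in immune cells. Its difference was -4.22 ± 1.10 (edgeR adjusted p = 0.0244, and 0.0818 without replicate 2 of the vehicle keratinocytes). With vehicle females the difference of Atf3 was -1.78 and did not pass (edgeR adjusted p = 0.566). Ier3 and Jun had differences of -2.03 ± 0.63 and -0.90 ± 0.49 that did not pass (edgeR adjusted p = 0.0535 and 0.293), although Ier3 was at 251, 327 and 51.2 CPM in vehicle and 1185, 1099, 839.7 and 1918 CPM in PTX keratinocytes, without overlap.

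In the NF-kB list, which holds subunits beside the inhibitors that they induce, 5 of 12 members were above 0 and 1 was called lower (median -0.69, from -1.57 to -0.30 over the alternatives). Nfkbia encodes the inhibitor IkB-alpha, which NF-kB itself induces. It was at 1906, 2064, 2079.7 and 2533 CPM in vehicle and 4868, 4950.3, 4099.5 and 4302 CPM in PTX immune libraries, and at 477, 439.6 and 362 and 1962, 2015, 1983 and 3434 CPM in keratinocytes. It rose in both populations without overlap, by 1.09 ± 0.25 (edgeR adjusted p = 0.0307) and 2.46 ± 0.29 (edgeR adjusted p = 9.09e-06), and the difference was -1.38 ± 0.36 (edgeR adjusted p = 0.0262). Without replicate 4 of the vehicle immune or replicate 3 of the vehicle keratinocyte libraries the adjusted p of the difference was 0.0547 and 0.0763, and with vehicle females 0.136. The Nfkbia call held in 1 of the 7 alternative fits. Tnfaip3, the NF-kB inhibitor A20, was at 679, 536, 664 and 787 and 1798, 2367, 1890.1 and 2893 CPM in immune cells and at 44.2, 0.649 and 0.328 and 264, 764, 573 and 695 CPM in keratinocytes, with a difference of -3.50 ± 1.28 that did not pass (edgeR adjusted p = 0.0918).

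The promoters of the 4 called members of these lists are shown because early genes of this kind are known to be induced through short sites near the start. Each line is the 160 bases before the gene's start, 5′ to 3′ on the gene's strand, from RefSeq (GRCm38.p6), with matches in capitals. TGACG on either strand, the half-site of CREB and ATF factors, TATAAA on the gene's strand, and the NF-kB consensus on either strand were searched.
Fos, chr12:85473730-85473889, plus strand: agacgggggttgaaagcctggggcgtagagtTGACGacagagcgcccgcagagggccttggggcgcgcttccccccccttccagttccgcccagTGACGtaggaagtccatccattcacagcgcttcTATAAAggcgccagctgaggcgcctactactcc
Junb, chr8:84978749-84978908, minus strand: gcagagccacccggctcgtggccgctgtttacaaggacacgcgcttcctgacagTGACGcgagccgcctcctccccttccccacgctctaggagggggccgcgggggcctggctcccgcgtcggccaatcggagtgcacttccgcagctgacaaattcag
Atf3, chr1:191183334-191183493, minus strand: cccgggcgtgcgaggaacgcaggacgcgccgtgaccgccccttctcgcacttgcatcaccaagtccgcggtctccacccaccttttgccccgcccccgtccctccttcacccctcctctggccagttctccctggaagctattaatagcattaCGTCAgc
Nfkbia, chr12:55492648-55492807, minus strand: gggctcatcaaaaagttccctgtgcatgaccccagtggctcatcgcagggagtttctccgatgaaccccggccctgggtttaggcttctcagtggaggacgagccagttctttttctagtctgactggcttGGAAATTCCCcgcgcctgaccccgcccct
The capitals mark TGACG at 129 and 66 bases before the start and TATAAA at 33 bases in Fos, TGACG at 106 bases in Junb, the reverse complement CGTCA at 7 bases in Atf3, and the NF-kB consensus at 29 bases in Nfkbia. TGACG was found in 7 of the 17 immediate early members with a promoter in the table, in 23.1% of the promoters of members and in 13.8% of all 32851 promoters. The NF-kB consensus was found in 5 of 9 members of the NF-kB list (Cyld, Nfkb2, Nfkbia, Rel and Tnfaip3), in 3.26% of the promoters of members and in 2.54% of all. TATAAA was in 5.1% of all promoters. A match is a run of letters and no measured site.

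The inducible heat shock gene Hspa1a rose in both populations. Hspa1a, which encodes an HSP70 chaperone, was at 1351, 1342, 1447 and 1217 CPM in vehicle and 3200.3, 5610.3, 3676 and 6618 CPM in PTX immune libraries, and at 172, 327 and 207 and 863, 1104, 725 and 914 CPM in keratinocytes. It passed upwards in both, by 1.83 ± 0.30 (edgeR adjusted p = 0.00229) and 1.94 ± 0.33 (edgeR adjusted p = 0.000879), and the difference was -0.10 ± 0.43 (edgeR adjusted p = 0.981), with a sign that turned to 0.22 under RLE scaling and DESeq2. With vehicle females as controls it was -1.77 and was called lower (edgeR adjusted p = 0.0389), so the call depended on the control libraries used. Hspa1b is nearly identical, so the split of reads between the copies is uncertain. Of 20 heat shock members 10 had a positive difference (median 0.13, but -0.32 with voom and -0.19 with vehicle females) and 1 was called, Hspb8, a small heat shock protein. Hspb8 fell from 32.2, 59.7, 46.0 and 89.3 to 0.848, 0.385, 0.774 and 0.498 CPM in immune cells and overlapped in keratinocytes, with a difference of -6.66 ± 1.88 (edgeR adjusted p = 0.0372) that was no longer called in 8 of 15 such leave-one-out fits. With vehicle females the difference of Hspb8 was -2.81 and did not pass (edgeR adjusted p = 0.47). Hsp90ab1, a constitutive HSP90 gene, was at 3963, 3388, 3566 and 4301 CPM in PTX against 1773, 2183, 2045 and 2137 CPM in vehicle immune libraries, without overlap, while its keratinocyte groups overlapped (1.08 ± 0.36, edgeR adjusted p = 0.0653).

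With vehicle females as controls in both populations, 19 members were called higher and 116 lower, beside 0.333% and 5.33% of all genes tested in that fit. Of the 19 members called higher with vehicle males, 17 had the same direction and 3 were called, and of the 115 called lower, 112 and 39. The 3 are Apoe, Slc29a3 and Rpl8. By the same minimum in vehicle females 6719 genes would be members, 5672 of them shared with the vehicle males.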

How the data were processed

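Sequencing used single-end 50-base reads from stranded TruSeq libraries, per the labels' protocols. The authors used bcl2fastq, TopHat2, HTSeq and the mouse build mm9, per the submitters' processing notes; their versions, the annotation and the counter's strand setting are not given in these sources. Each library has 1 deposited table of unnormalized read counts by gene symbol. HTSeq's summary lines entered neither the library sizes nor any test; in the 15 libraries 43.0 to 54.2% of reads had no unique place and 12.3 to 31.0% lay in no gene. Genes of near-identical sequence are uncertain.

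The 15 libraries were fitted together with edgeR 4.0.16 under R 4.3.3 (TMM over the 15, filterByExpr, glmQLFit with robust estimation, 1 coefficient per group), which tested 13160 genes. The two-sided quasi-likelihood F-test was applied to the difference of PTX effects and to each effect, with Benjamini-Hochberg adjustment over all tested genes at 0.05. The biological coefficient of variation was 1.59. CPM of single genes in the 15 libraries, with their means, folds and statements on overlap, are scaled by TMM. The choice of members, their resting levels and the marker sums are not. TMM factors were 0.668 to 0.841 in PTX immune and 1.00 to 1.09 in vehicle immune libraries. They were 0.948 to 1.27 in vehicle and 1.07 to 1.25 in PTX keratinocytes. Levels of vehicle females come from libraries outside the 15. Effects in both populations and their difference share libraries. A group without counts was set to a floor of 3 counts per library for bounds; such floors and the intervals given cover only the error of counting. The code was tested on simulated data.

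Members and gene lists (41 lists, 958 of 968 entries found) were chosen with earlier results of these data known. Named were the 12 largest called differences per direction with at least 10 CPM in a PTX group or a fall in both, up to 4 members per list by lowest p, and up to 6 per direction without overlap in opposite directions; clone-like symbols were passed over, and members chosen after their values were seen are marked, and 1 gene that met the rule is not reported here. Alternatives were RLE scaling, no filter, DESeq2 1.42.0, limma 3.58.1 with voom quality weights, a replicate block, the fit with 8 more vehicle female libraries, vehicle females as controls, other minimums, and leaving out each library. The stricter minimum in each of the 7 vehicle male libraries and vehicle females in both roles were added after seeing the data. Each of the 21 pairs of libraries within a group differed by more than counting noise.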

Additional observations from a re-analysis of the deposited data

Results flagged for a closer look

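Every difference in PTX effect that passed the edgeR test is by construction a difference between the 2 populations under the same contrast, so 19 members called higher and 115 called lower stand out for a closer look. The log2 differences named were, among genes with few counts in PTX keratinocytes, BC002230 at 11.67, Zfp53 at 10.87, Slc29a3 at 10.41, Yipf6 at 10.41, Lpxn at 10.40, Gas2l3 at 9.30, Cul2 at 9.16, Il1rap at 8.42 and Il1rn at 7.97. Among more abundant genes called higher they were Gnptg at 4.79, Wdr43 at 4.38, Uqcrc2 at 3.32, Ccnd2 at 2.76, Apoe at 2.12, Atp5b at 1.85, Lgals3 at 1.76, Anxa2 at 1.72 and Rpl8 at 1.70. Called lower among fibroblast and matrix genes were Igfbp6 at -10.58, Mmp2 at -10.38, Itih5 at -10.72, Apod at -9.72, Fbln1 at -8.30, Cxcl12 at -7.81, Dcn at -7.79 and Gsn at -5.86. Vessel, muscle and other genes called lower were Pcp4l1 at -13.30, Dock6 at -12.13, Apold1 at -11.79, Fscn1 at -11.64, Lama5 at -11.47, Mast4 at -11.39, Pecam1 at -11.08, Ccdc3 at -10.83, Sdpr at -10.66, Igfbp7 at -10.31, Acta2 at -7.95 and Hspb8 at -6.66. Keratinocyte genes were Col17a1 at -9.03, Krt1 at -8.51, Krt5 at -8.11, Dsp at -7.93, Igfbp2 at -7.75, Krtdap at -7.46, Pkp1 at -7.46 and Cxcl14 at -6.06. Fscn1, Mast4 and Krt1 had no count in PTX immune libraries, so their fitted values are no bounds, and with a floor of 3 counts per library they are -6.87, -6.61 and -3.73. Immune and early response genes were Cd74 at -4.82, Lyz2 at -4.75, Atf3 at -4.22, Icam1 at -4.06, Fos at -2.26, B2m at -1.82, Junb at -1.68 and Nfkbia at -1.38.

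Single libraries stood apart from the other 3 of their group in 27 of 192 groups of 4 over the 64 genes checked, by the gap to the nearest library relative to the range of the group. Chance flags about 1 in 20 groups if values are normally distributed. The check used CPM without a log, for which that rate need not hold and may be higher. Where the other libraries are at 0 a single count is enough. In replicate 2 of the PTX keratinocyte libraries it was Yipf6 at 0.106 CPM against 0. In replicate 3 of the PTX keratinocyte libraries it was Lpxn at 0.0665 CPM against 0. In replicate 1 of the PTX keratinocyte libraries these were Cul2 at 1.49 CPM against 0, Igfbp6 at 596 CPM against 203 to 265 and Cxcl14 at 485 CPM against 181 to 233. In replicate 4 of the PTX keratinocyte libraries these were Wdr43 at 111 CPM against 21.1 to 34.9, Lama5 at 627 CPM against 240.2 to 300.3, Rpl8 at 907 CPM against 1272 to 1342, Pkp1 at 52.8 CPM against 223 to 245, Nfkbia at 3434 CPM against 1962 to 2015, Hspb8 at 391 CPM against 85.3 to 135 and Cxcl12 at 1695 CPM against 1013 to 1070.0. In replicate 4 of the vehicle immune libraries these were Pcp4l1 at 172 CPM against 29.5 to 40.7, Sdpr at 107 CPM against 29.4 to 40.4, Krt5 at 624 CPM against 20.7 to 119, Krt1 at 44.4 CPM against 2.89 to 7.92 and Col17a1 at 202 CPM against 0 to 34.4. In replicate 4 of the PTX immune libraries these were Dock6 at 0.0996 CPM against 0, Lyz2 at 21016 CPM against 13178 to 13531 and Krtdap at 0.0996 CPM against 0. In replicate 2 of the PTX immune libraries these were Lama5 at 0.0770 CPM against 0, BC002230 at 133 CPM against 0 to 0.170 and Acta2 at 32.2 CPM against 0.896 to 1.55. In replicate 1 of the vehicle immune libraries it was Lgals3 at 2469 CPM against 1431 to 1577. In replicate 1 of the PTX immune libraries these were Col17a1 at 0.0848 CPM against 0, Dsp at 0.0848 CPM against 0 and Igfbp7 at 5.34 CPM against 2.31 to 2.79. Replicate 4 of the vehicle immune libraries was high for keratinocyte genes and for Pcp4l1 and Sdpr, and it held the highest sum of basal keratinocyte markers in its group, 2861 CPM.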

How the results depend on the processing

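Of the 19 members called higher, 3 were called in all 15 fits with 1 library left out, Apoe and Slc29a3 among them, and 51 of the 115 called lower. Over these fits members called higher numbered 7 (without PTX immune replicate 1) to 41 (without PTX keratinocyte replicate 1) and lower 76 (without vehicle immune replicate 4) to 165 (without vehicle keratinocyte replicate 1), and the median difference was 0.02 to 0.52. The immune effect gave 1 to 6 higher and 48 to 110 lower, and the keratinocyte effect 44 to 158 higher and 10 to 35 lower. DESeq2 called 149 higher and 284 lower for the difference, 390 lower in immune cells, and 103 higher and 234 lower in keratinocytes. Without a filter 6 were higher, with 1 higher in immune cells and 10 lower in keratinocytes. With voom weights the immune effect had 85 higher and 242 lower, the keratinocyte effect 6 higher, and the medians reversed to -0.59 for the difference and -0.59 for immune cells. RLE left 1 higher in immune cells. The fit with vehicle females too gave 32 higher, 1 higher in immune cells and 46 lower in keratinocytes. Vehicle females as controls gave 15 lower in immune cells and 161 higher and 33 lower in keratinocytes, and turned Il1rap to -0.99 and Il1rn to -0.28. Members by vehicle females had 188 lower. Of the minimums added after seeing the data, 10 CPM in each of the 7 vehicle male libraries left 2228 members with 9 higher and 38 lower, and vehicle females as controls and in the rule gave 55 lower. Single differences changed sign for Hspa1a (0.22 with RLE and 0.22 with DESeq2, and -0.411 to 0.0847 with 1 library left out), Zfp53 (-1.90 to 11.50) and Il1rn (-0.11 to 8.56). The causes of these changes were not tested.

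No pairing by replicate number was seen in the deviations of libraries from their group means. Those with the same number correlated between -0.0229 and 0.0335 over 21 pairs, and those with other numbers between -0.0484 and 0.0308 over 63. Whether libraries of the same number were processed together was not tested. With the replicate block 5 members were higher and 64 lower for the difference, 2 and 45 in immune cells, and 6 lower in keratinocytes, and the medians reversed to -0.15 for the difference and -0.15 for immune cells. Of the named genes' values under alternatives, 1121 kept direction and side of the threshold, 266 lost the call, 12 gained it and 9 reversed. The spread between libraries, and the 6518070 counts of vehicle keratinocyte replicate 2, limit what could be called, so differences of a few fold in genes of low level may have been missed.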

Other observations

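Cytokine and chemokine genes differed most among the remaining lists, with 9 members of which 2 were called lower (Cxcl12 and Cxcl14) and 1 higher (Il1rn), a median of -4.0 and 3 members above 0. Cxcl1, a neutrophil attractant, was at 159.7, 0.974 and 0.492 CPM in vehicle and 438, 1936, 696 and 715 CPM in PTX keratinocytes and had a difference of -4.0 ± 1.53 (edgeR adjusted p = 0.107). Of 28 lysosome members 10 were above 0 and none was called (median -0.34). Ctsz, a cathepsin, was at 39.0, 0.325 and 0.574 CPM in vehicle and 263, 132, 307 and 50.4 CPM in PTX keratinocytes (-3.09 ± 1.35, edgeR adjusted p = 0.167). Of 14 TGF-beta members 1, Id3, was called lower (-5.78 ± 1.48, edgeR adjusted p = 0.0229), and the list median of -0.48 was 0.39 with vehicle females.

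Of 17 members among p53 targets and apoptosis genes, 10 were above 0 (median 0.91, but -0.70 with voom). Pmaip1, which encodes the BH3 protein Noxa, was at 13.5, 77.1, 29.4 and 29.3 CPM in vehicle and 228, 342, 266 and 37.6 CPM in PTX immune libraries, and at 38.6, 0.162 and 0.0820 and 0, 0.106, 0 and 1.08 CPM in keratinocytes (8.02 ± 2.54, edgeR adjusted p = 0.0569). In the list of iron storage and oxidative stress 17 of 27 members were above 0 and none was called (median 0.51). Ftl1, the ferritin light chain, was at 149, 198 and 180.4 CPM in vehicle and 534, 787, 588 and 618 CPM in PTX keratinocytes, without overlap, and had a difference of -1.05 ± 0.40 (edgeR adjusted p = 0.104). Glycolysis (8 of 12 above 0, median 0.49), the actin cytoskeleton (24 of 36, median 0.36, Gsn called) and splicing factors (29 of 37, median 0.54) lay near the median of all members. The unfolded protein response (11 of 20, median 0.03) and ubiquitin (7 of 12, median 0.21) had no call.

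JAK-STAT (7 of 18 above 0, median -0.34), Toll-like receptor signalling (3 of 9, median -0.33), type I interferon response (4 of 8, median -0.08), glucocorticoid and clock targets (3 of 12, median -0.95) and prostaglandin and leukotriene synthesis (4 of 6, median 0.67) also had no call.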
